A study of Mus musculus with 15 samples.

Results

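The genes described here encode the membrane fusion machinery of the presynaptic terminal: the SNARE proteins Vamp1, Vamp2, Snap25 and Stx1a, the complexins Cplx1, Cplx2 and Cplx3, and the SNARE-disassembly proteins Nsf and Napb. Members were taken by symbol, and every probe set annotated to 1 of these symbols alone was used. That gave 25 probe sets for 9 genes, of 45101 probe sets on the array and 34945 annotated to a single gene. Of the 25, 19 probe sets of 8 genes exceeded 5 on the log2 scale, the limit taken between signal and background, on at least 3 of the 15 arrays and were tested. The other 6 were the only probe set of Cplx3, 2 of the 4 of Nsf, 2 of the 6 of Napb and 1 of the 2 of Vamp1.

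Expression was measured with Affymetrix Mouse Genome 430 2.0 arrays in GFP-positive neurons of G42 mice, 3 animals and so 3 arrays at each of P7, P10, P15, P25 and P40 (postnatal days), the last group reaching day 45. All animals carried the G42 transgene and none was treated, so age is the difference between groups that the labels give. In this line a Gad1 promoter drives GFP, and in cortex the label falls mainly on parvalbumin-class basket cells. Cells were picked by hand from dissociated primary somatosensory cortex, 23 to 85 per animal, so each array is a small pool of neurons, and its RNA was amplified in vitro before labelling.

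Neurotransmitter release is driven by a 4-helix bundle that a vesicle SNARE (a synaptobrevin, encoded by Vamp1 or Vamp2) forms with syntaxin-1 and SNAP-25 on the plasma membrane. Complexins clasp the assembled bundle, restrain spontaneous fusion and speed release when synaptotagmin binds calcium. After fusion the ATPase NSF and its SNAP adaptors, among them beta-SNAP (Napb), pull the bundle apart for reuse. Relatives within each family can stand in for one another, so a cell may change which relative it makes without losing the function, and fast-spiking parvalbumin cells are known for tightly timed release. Whether 1 relative replaced another with age was the question asked of these arrays.

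The 250 bases upstream of the annotated start are shown for Vamp1, the largest riser, for Stx1a and Cplx2, the only members that fell, and for Cplx1, the relative set against Cplx2 (RefSeq, GRCm38.p6, 5′ to 3′). Capitals mark the GC box GGGCGG on either strand. Vamp2 and Snap25 have no entry in the table used, and 7 of the 9 members do.
Vamp1, chr6:125215331-125215580, plus strand: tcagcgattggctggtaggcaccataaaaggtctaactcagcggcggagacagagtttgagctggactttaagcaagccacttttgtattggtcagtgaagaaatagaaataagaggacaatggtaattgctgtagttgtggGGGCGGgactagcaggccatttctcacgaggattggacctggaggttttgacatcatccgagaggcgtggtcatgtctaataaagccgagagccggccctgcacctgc
Stx1a, chr5:135023232-135023481, plus strand: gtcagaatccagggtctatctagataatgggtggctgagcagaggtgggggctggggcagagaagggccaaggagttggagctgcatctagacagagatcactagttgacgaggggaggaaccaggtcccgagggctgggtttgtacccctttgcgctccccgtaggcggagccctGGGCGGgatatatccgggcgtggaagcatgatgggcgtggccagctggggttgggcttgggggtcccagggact
Cplx1, chr5:108550028-108550277, minus strand: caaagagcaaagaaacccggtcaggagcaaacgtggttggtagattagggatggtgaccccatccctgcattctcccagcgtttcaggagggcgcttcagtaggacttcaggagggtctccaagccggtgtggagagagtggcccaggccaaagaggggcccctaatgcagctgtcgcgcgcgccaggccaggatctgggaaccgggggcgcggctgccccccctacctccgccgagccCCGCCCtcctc
Cplx2, chr13:54302306-54302555, plus strand: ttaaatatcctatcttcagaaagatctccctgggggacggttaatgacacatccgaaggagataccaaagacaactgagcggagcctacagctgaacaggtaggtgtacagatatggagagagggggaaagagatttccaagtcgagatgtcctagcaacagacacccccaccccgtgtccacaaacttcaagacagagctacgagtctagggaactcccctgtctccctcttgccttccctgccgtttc
Among the 7 members' windows, those of Vamp1, Stx1a and Cplx1 each held 1 GC box, and those of Cplx2, Cplx3, Nsf and Napb held none. Of the 32851 windows of the same length in the table, 32.7% held it. The cyclic AMP response element TGACGTCA and the estrogen-related receptor element AAGGTCA were searched on both strands and were in none of the 7 members' windows, nor did they overlap the GC box in sequence, against 1.55% and 4.08% of all windows. Vamp1 and Cplx2, which moved in opposite directions, had 50.4% and 50.8% G and C in these windows, and Stx1a and Cplx1 62% and 64.8%. A match or its absence in this window is a description of the letters only.

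Pvalb read 3.19 to 4.45 on the P7 arrays and 14.05 to 14.42 at P40. Of 8 excitatory neuron markers measured, 6 never exceeded 5 on any array, Slc17a7, Slc17a6, Neurod6, Neurod2, Tbr1 and Emx1. The other 2, Camk2a and Nrgn, followed different courses. The mean of Camk2a went from 5.38 at P7 to 7.47 at P40. That of Nrgn rose from 5.18 at P7 to 8.72 at P10, then fell to 6.63 (SD 1.78) by P15 and 4.27 by P40. The summed linear level of the 8 was 137 to 155 at P7, 496 to 640 at P10, 122 to 483 at P15, 303 to 467 at P25 and 231 to 271 at P40. Sst read 10.76 to 12.92 at P7, 11.04 and 12.24 on P40 replicates 2 and 3 and 1.72 on P40 replicate 1. The summed level of the oligodendrocyte markers Mbp, Mog, Mobp and Mag, of which Mog and Mag never exceeded 5, was 100 to 183 at P7, 1528 to 3360 at P25 and 58 to 250 at P40. The 3′ minus 5′ signal difference of the beta-actin controls is smaller when amplified RNA is longer, and averaged 5.77 ± 0.98 (SD, n = 3) at P7 and 3.93 ± 0.55 at P40. It was 3.99 and 3.54 on P15 replicates 2 and 3, where hybridization spikes averaged 2.51 and 2.47 against 9.88 or more on the other arrays. How much these differences contribute to the results was not tested, except where a value with this covariate or without an array is given. The 3′ minus 5′ difference itself varied with age, so a fit with it as a covariate can estimate age differences less precisely. A call lost with it need not mean a smaller difference.

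Between P7 and P40, Vamp1 rose most and Cplx2 fell most, while Snap25, Nsf and Napb rose and Stx1a fell. Limma called 17 of the 19 member probe sets different between these ages (adjusted p under 0.05), 12 higher and 5 lower at P40. Over all 15381 probe sets tested the share called was 41.9%, with 26% higher and 15.9% lower. With the 3′ minus 5′ covariate 12 of the 19 were called, 7 higher and the same number, 5, lower. The 3 arrays of P7 and of P40 did not overlap for 17 member probe sets, against 53.1% of all probe sets. The median P40 minus P7 difference was 0.73 over the 19 member probe sets and 0.18 over all tested. Equal array medians took 0.22 off each difference and left 16 member calls, 11 higher, while the share of all calls that were higher went from 62% to 50.5%. Quantile normalization moved the median by 0.17, again with 16 member calls, and that share was 52.9%.

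**Figure D1:**
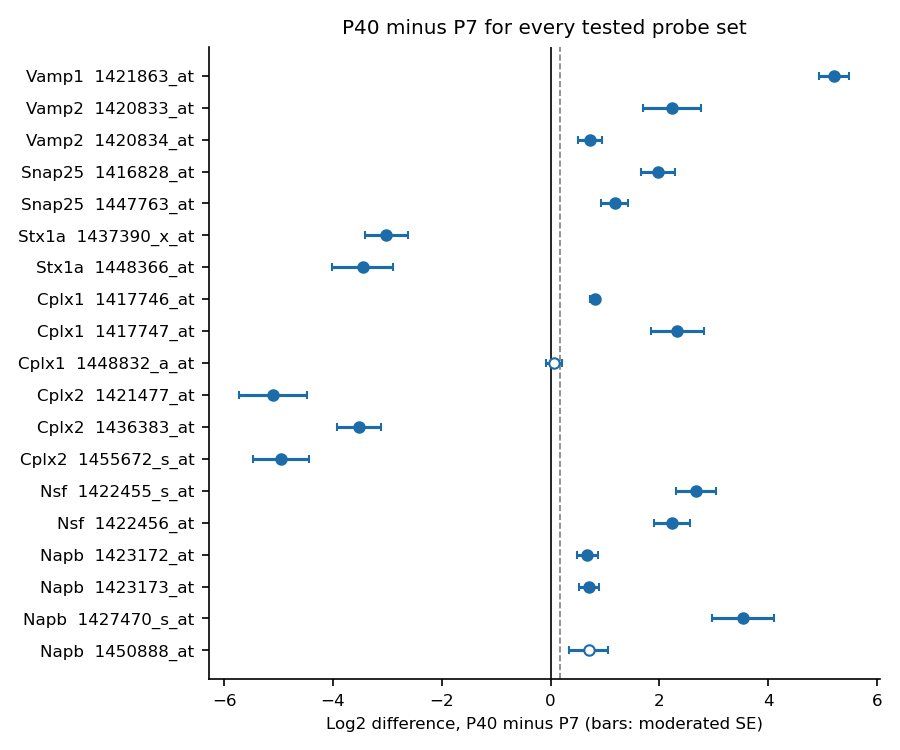
Log2 difference between P40 and P7 (x axis) for each of the 19 tested probe sets (y axis, symbol and probe set), with the moderated SE as bars and filled points where the adjusted p was under 0.05. The dashed line is the median of all tested probe sets, 0.18. The probe sets of Stx1a and Cplx2 lie left of zero and all others to the right, and the open points are Cplx1 1448832_a_at, whose sign turned with equal array medians, and Napb 1450888_at.

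Vamp1 encodes synaptobrevin-1, a vesicle SNARE of fast terminals in brainstem, spinal cord and inhibitory neurons. Its probe set 1421863_at read 9.44, 8.43 and 8.72 on the 3 P7 arrays, 11.04, 11.04 and 12 at P10, 12.83, 12.36 and 12.50 at P15, 14.07, 14.01 and 14.45 at P25, and 14.12, 14.16 and 13.95 at P40. Each age up to P25 lay wholly above the one before, and P25 and P40 overlapped. The increase from P7 to P40 was 37.1-fold (log2 difference 5.21, SE 0.28, adjusted p = 2.8e-08). It came in steps of 2.50 from P7 to P10 (adjusted p = 1.9e-04), 1.20 to P15 (adjusted p = 0.021) and 1.61 to P25 (adjusted p = 0.0052), with -0.10 from P25 to P40 (adjusted p = 0.95). The call from P10 to P15 was lost without P10 replicates 1 or 2 or P15 replicates 2 or 3 (log2 differences from 1.04 to 1.30) and with the 3′ minus 5′ covariate (1.02). A second probe set of Vamp1, 1421862_a_at, stayed between 2.17 and 2.29 on all 15 arrays, so the mean of both gave 2.58 for P40 minus P7. Another probe set, shared with E130112N10Rik and so outside the rule, read 2.42 to 2.61.

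Vamp2, which encodes synaptobrevin-2, the main vesicle SNARE of forebrain synapses, changed far less on its brighter probe set. That probe set, 1420834_at, read 11.50, 10.75 and 11.02 at P7, 11.65, 11.56 and 12.02 at P10, 12.33, 11.96 and 12.31 at P15, 11.87, 12.52 and 12.42 at P25, and 11.68, 11.96 and 11.82 at P40. The P40 arrays lay above those of P7 and inside the range of P10 and P15 together. It was 1.66-fold higher at P40 than at P7 (log2 difference 0.73, SE 0.22, adjusted p = 0.018). This call was lost with quantile normalization (0.54), equal array medians (0.51), the 3′ minus 5′ covariate (0.64), without P7 replicate 2 (0.56) and without P40 replicate 2 (0.66). No single step of this probe set was called.

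The other Vamp2 probe set, 1420833_at, followed another course. It read 6.32, 4.67 and 4.69 at P7 and 5.94, 4.71 and 6.42 at P10. At P15 it read 7.60, 8.97 and 7.86, at P25 6.03, 6.06 and 5.88, and at P40 7.55, 7.85 and 6.98. The arrays of P15 and P40 were all above those of P25. The step up to P15 was 2.45 (adjusted p = 0.016) and the step down to P25 -2.15 (adjusted p = 0.034). The beta-actin 3′ minus 5′ difference went from 5.73 at P10 to 4.50 at P15, 5.31 at P25 and 3.93 at P40. With it as a covariate neither step was called (1.78 and -1.71), nor was the P40 minus P7 difference (1.22 in place of 2.23). The step up was also lost without P10 replicate 2 (1.96) or P15 replicate 2 (2.04), and the step down without P15 replicates 2 or 3 or any of the P25 arrays (from -2.30 to -1.74).

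Snap25 supplies 2 of the bundle's 4 helices, and both of its probe sets were higher at P40. Probe set 1416828_at read 12.92, 11.96 and 11.53 at P7, 12.29, 12.07 and 13.22 at P10, 13.23, 13.47 and 13.72 at P15, 14.11, 14.04 and 14.01 at P25, and 14.26, 14 and 14.09 at P40. The arrays of P7 and P10 overlapped, those of P15 lay between, and those of P25 and P40 overlapped again. The rise was 3.94-fold (log2 difference 1.98, SE 0.31, adjusted p = 1.9e-04), and 1.37 with the 3′ minus 5′ covariate. Probe set 1447763_at rose 2.27-fold (1.18, SE 0.25, adjusted p = 0.0021), from 11.51 ± 0.21 (SD, n = 3) at P7 to 13.39 ± 0.11 at P25 and 12.69 ± 0.51 at P40. No step between neighbouring ages was called for either, the smallest adjusted p being 0.064 for 1416828_at from P10 to P15.

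Stx1a, which encodes the plasma membrane syntaxin-1A, was the SNARE that fell. Probe set 1437390_x_at read 12.73, 12.46 and 13.19 at P7, 12.52, 13.15 and 12.62 at P10, 12.18, 11.99 and 12.19 at P15, 11.62, 11.02 and 10.27 at P25, and 8.77, 10.51 and 10.05 at P40. P7 and P10 overlapped, P15 lay below both, and P25 below P15. The decrease from P7 to P40 was 8.12-fold (log2 difference -3.02, SE 0.40, adjusted p = 4.3e-05), and the 25 other settings tried gave -3.39 to -2.52. Its name ends in _x, which marks probe sets that can also match other transcripts. Probe set 1448366_at went from 8.17, 6.47 and 8.16 at P7 to 3.05, 4.53 and 4.88 at P40, all 3 at background, so it was at least 6.06-fold lower (adjusted p = 2.6e-04). It still read 8.04, 7.12 and 8.42 at P15 and 6.71, 6.54 and 5.72 at P25. No single step passed the test for either probe set, the smallest adjusted p being 0.072 from P25 to P40 for 1448366_at. P40 replicate 1, where Sst read 1.72, was the lowest for both.

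**Figure D2:**
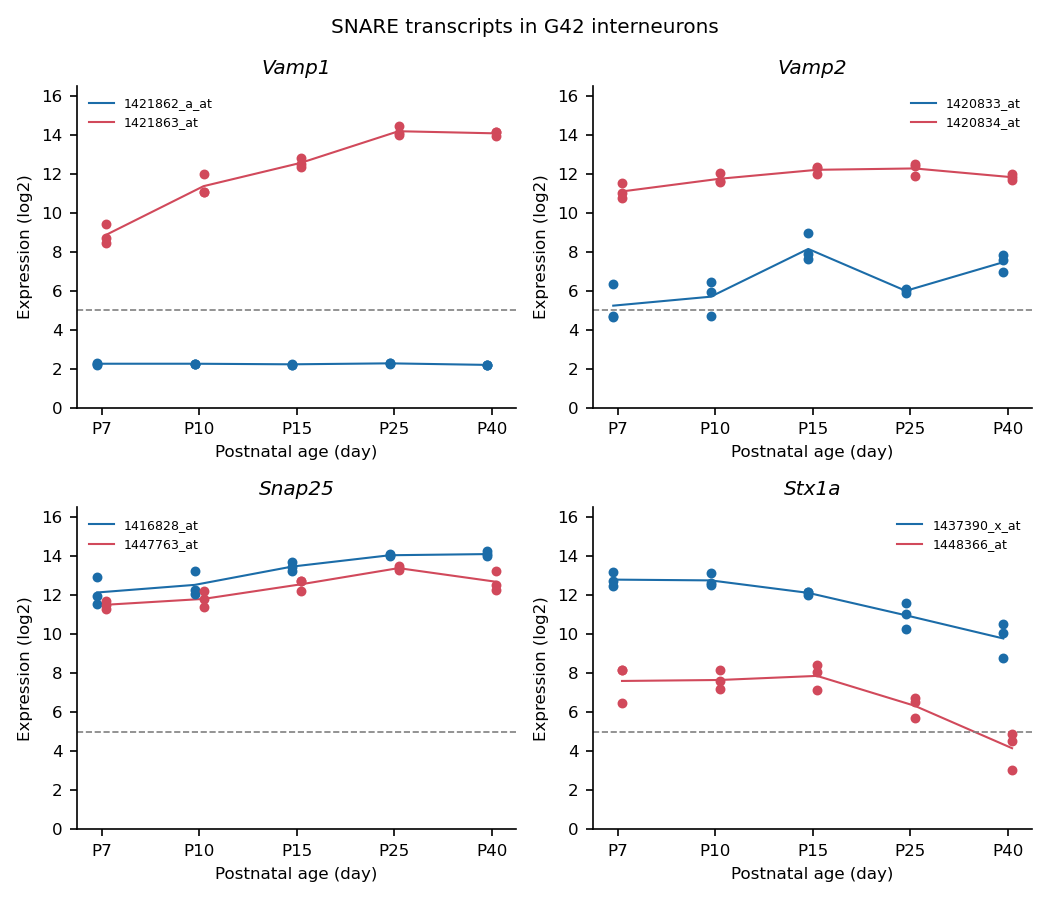
Log2 expression (y axis) by postnatal age (x axis) for each probe set of the 4 SNARE genes, with 1 point per array (3 per age) and a line through the age means; the dashed line is the background limit of 5. Vamp1 1421863_at climbs from 8.86 to 14.07 between P7 and P40 while Vamp2 1420834_at stays between 10.75 and 12.52, and both Stx1a probe sets fall after P15.

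Cplx1, the complexin of fast and inhibitory terminals, was high at every age. Probe set 1417746_at read 13.75, 13.99 and 13.95 at P7, 14.37, 14.21 and 14.26 at P10, 14.38, 14.44 and 14.62 at P15, 14.50, 14.55 and 14.51 at P25, and 14.72, 14.64 and 14.75 at P40. Each age up to P15 lay above the one before it, P25 lay within P15, and P40 was above both. The rise was 1.75-fold (log2 difference 0.81, SE 0.09, adjusted p = 1.5e-05). Its step from P7 to P10 (0.38, adjusted p = 0.042) was lost under 19 of 25 other settings, including without any 1 of the P7, P10, P25 or P40 arrays or P15 replicate 2 (from 0.31 to 0.43). Probe set 1448832_a_at ran from 13.73 to 14.40 over all arrays with P7 and P40 overlapping, and gave 0.06 (SE 0.15, adjusted p = 0.76). The sign of that value turned with equal array medians (-0.15), without P7 replicate 1 (-0.13) and without P40 replicate 3 (-0.04). The dim probe set 1417747_at was at or under 4.27 on all arrays of P7, P10 and P25, read 4.38, 5.40 and 5.92 at P15 and 6.23, 7.32 and 5.22 at P40. It was at least 2.38-fold higher at P40 than at P7 (adjusted p = 0.0018), a call lost with the 3′ minus 5′ covariate (log2 difference 1.65 in place of 2.33). The step from P25 to P40, 2.23 (adjusted p = 0.040), was lost without P7 replicate 2, P15 replicate 2, or any of the P25 arrays or P40 replicates 1 or 2 (from 1.70 to 2.31), with the 3′ minus 5′ covariate (1.72) and with the replicate number as a block (adjusted p = 0.052).

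Cplx2, the complexin common in excitatory terminals, fell on all 3 of its probe sets, and the step from P10 to P15 was the only one called for each of them. The brightest, 1455672_s_at, read 10.86, 10.67 and 10.86 at P7, 10.03, 10.01 and 9.87 at P10, 7.38, 6.88 and 7.01 at P15, 7.05, 7.27 and 7.12 at P25, and 4.13, 6.25 and 7.12 at P40. Every array of P7 and P10 was above every array of the 3 later ages, and P15, P25 and the highest P40 array overlapped. The decrease over the whole period was 31.1-fold (log2 difference -4.96, SE 0.52, adjusted p = 6.2e-06). It was -4.11 without P40 replicate 1, which was at background for this probe set, and -5.60 without P40 replicate 3. The _s in its name marks probe sets that can match more than 1 transcript. P40 replicate 1, the array with Sst at 1.72, was the lowest P40 array for all 3 Cplx2 probe sets. In pools of picked cells, fewer cells with a transcript and less of it in each cell cannot be told apart. The mean of the excitatory marker Nrgn also fell from P10 to P15, from 8.72 to 6.63, though P15 replicate 1 read 8.51. At P7, where 1455672_s_at read 10.67 to 10.86, the Nrgn mean was 5.18. Whether the fall of Nrgn bears on that of Cplx2 was not tested.

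The other Cplx2 probe sets went the same way. Probe set 1421477_at read 8.96, 9.33 and 11.08 at P7, 10, 10.32 and 8.74 at P10, 6.33, 6.23 and 5.30 at P15, 4.70, 4.20 and 3.31 at P25, and 3.70, 5.47 and 4.90 at P40. It crossed to background on all 3 arrays by P25, and 1 of 3 exceeded 5 at P40. It was called lower at P40 than at P7 (adjusted p = 2.2e-05), with means of 9.79 ± 1.13 (SD, n = 3) and 4.69 ± 0.91, the latter at background, so no fold is given. The difference between these means, -5.10, was -4.46 both without P7 replicate 3 and with the 3′ minus 5′ covariate. Probe set 1436383_at read 8.51, 8.24 and 7.37 at P7 and 3.94, 4.79 and 4.85 at P40, at least 8.22-fold lower (adjusted p = 1.3e-05). From P10 to P15 the 3 probe sets fell by 2.88 (adjusted p = 0.0078), 3.73 (adjusted p = 0.0052) and 2.13 (adjusted p = 0.0096) on the log2 scale. In that step limma called 9.99% of all probe sets, 2.46% lower. The step call was lost without P15 replicate 2 for 1436383_at (-1.93), and with the 3′ minus 5′ covariate for 1455672_s_at (-2.66). Without P15 replicates 2 and 3 together the steps were -2.59, -3.36 and -2.23, none of them called, with the 1 remaining array assumed to vary like the other ages. None of the 3 probe sets passed the test in a later step, the nearest being 1421477_at from P15 to P25 (-1.88, adjusted p = 0.11).

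Cplx3 (probe set 1424606_at), a complexin of retinal ribbon synapses and of some layer 6b and neurogliaform cells, was listed between 1.85 and 1.95 on all 15 arrays. No array showed signal, so it had no test and no fold. Of the other layer 6b and subplate markers, Nxph4 stayed between 1.95 and 2.01, Ccn2 ran from 4.25 to 6.84, and Moxd1 read 2.03, 1.98 and 2.84 at P7 and 8.11, 9.40 and 9.96 at P40. Cplx3 thus stayed at background while Moxd1 was higher at the later ages.

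**Figure D3:**
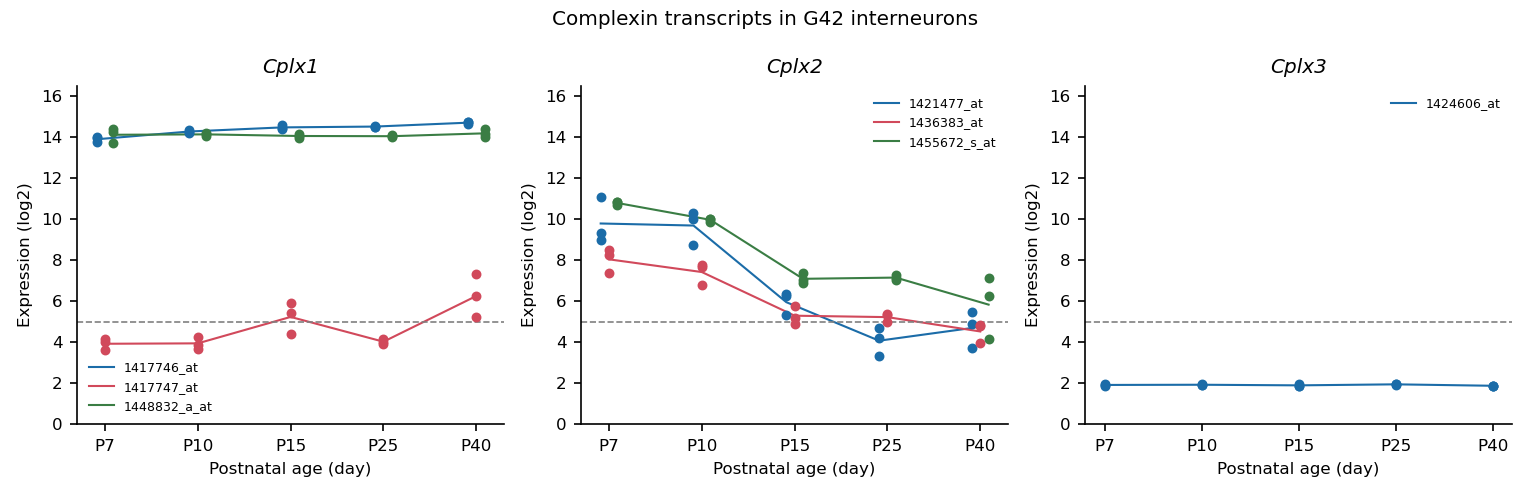
Log2 expression (y axis) by postnatal age (x axis) for each probe set of the 3 complexin genes, 1 point per array, with a line through the age means and the dashed background limit of 5. The bright Cplx1 probe sets stay between 13.73 and 14.75, the 3 Cplx2 probe sets drop between P10 and P15, and Cplx3 lies at background throughout.

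NSF is the ATPase that separates used SNARE bundles, and the 2 tested probe sets of Nsf rose. Probe set 1422456_at read 12.63, 11.45 and 11.34 at P7, 11.84, 12.04 and 13.12 at P10, 13.23, 13.66 and 13.62 at P15, 13.67, 13.66 and 13.48 at P25, and 14.19, 13.89 and 14.04 at P40. P7 and P10 overlapped, P15 and P25 overlapped, and P40 lay above all earlier arrays. The increase was 4.70-fold (log2 difference 2.23, SE 0.33, adjusted p = 1.1e-04), 1.63 with the 3′ minus 5′ covariate and 1.22 with the mean of all 4 probe sets, 2 of which (1430409_at and 1457205_at) stayed under 5. Its step from P10 to P15 (1.17, adjusted p = 0.039) was lost under 16 of 25 settings, among them without P10 replicates 1 or 2, P15 replicates 2 or 3, P25 replicates 1 or 2 or any P40 array (from 0.92 to 1.17).

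Probe set 1422455_s_at of Nsf read 8.80, 8.88 and 9.37 at P7, 10.14, 10 and 10.86 at P10, 11.33, 10.28 and 10.62 at P15, 10.18, 9.23 and 10.24 at P25, and 12.14, 11.13 and 11.83 at P40. It was lower at P25 than at P15 on all arrays, unlike 1422456_at. It rose 6.42-fold from P7 to P40 (2.68, SE 0.37, adjusted p = 6.1e-05). From P25 to P40 it rose by 1.82 (adjusted p = 0.029), a step in which 1.74% of all probe sets were called, and this call was lost without P25 replicates 1 or 2 or P40 replicates 1 or 3 (from 1.49 to 1.97) and with the 3′ minus 5′ covariate (1.99). Probe sets ending in _s can match more than 1 transcript.

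Napb, which encodes beta-SNAP, the brain adaptor that recruits NSF, was high from P7 on its brightest probe sets and rose little. Probe set 1423173_at read 12.23, 12.59 and 12.55 at P7, 13.16, 13.00 and 12.83 at P10, 12.76, 13.45 and 13.24 at P15, 12.88, 12.51 and 12.88 at P25, and 13.07, 13.24 and 13.20 at P40. The P40 arrays lay above those of P7 and overlapped those of P10 and P15. It rose 1.64-fold (log2 difference 0.71, SE 0.18, adjusted p = 0.0058), and 1423172_at rose 1.60-fold (0.68, SE 0.20, adjusted p = 0.013). Both calls were lost with the 3′ minus 5′ covariate (0.54 and 0.47), and that of 1423172_at also without P40 replicate 2 (0.56). Probe set 1450888_at, between 10.17 and 12.38 on all arrays, was not called (0.70, SE 0.36, adjusted p = 0.14), but was without P7 replicate 3 (1.09). The dimmer 1427470_s_at read 5.50, 4.98 and 4.28 at P7 and 8.82, 8.91 and 7.64 at P40 (3.54, SE 0.57, adjusted p = 2.3e-04), and 2.13 with the 3′ minus 5′ covariate. Its step from P10 to P15 (2.38, adjusted p = 0.023) was lost with that covariate (1.44) and without P10 replicates 1 or 2 or P15 replicates 2 or 3 (from 2.10 to 2.20). The 3 bright probe sets of this gene thus ran from 0.68 to 0.71, while 1427470_s_at started from a P7 mean of 4.92, at background, and has no fold. Of the untested Napb probe sets, 1444234_at stayed between 2.63 and 2.80. The other, 1452444_at, exceeded 5 on 2 of 15 arrays. It read 2.19, 2.15 and 2.16 at P7, 2.19, 4.39 and 5.02 at P15, 2.99, 2.20 and 2.20 at P25, and 4.97, 6.17 and 3.22 at P40.

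**Figure D4:**
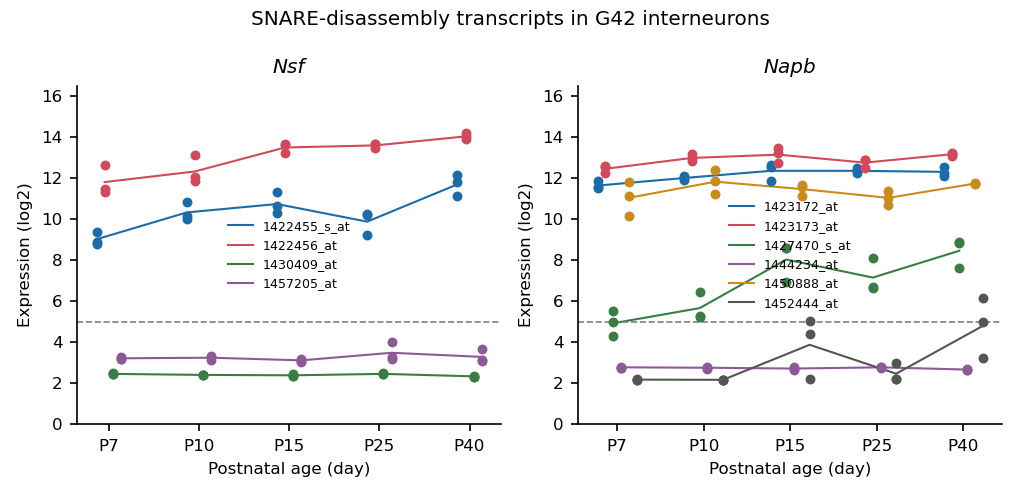
Log2 expression (y axis) by postnatal age (x axis) for each probe set of Nsf and Napb, 1 point per array, with a line through the age means and the dashed background limit of 5. Nsf 1422456_at climbs from 11.81 to 14.04, Napb 1423173_at stays between 12.23 and 13.45, and Napb 1427470_s_at climbs from 4.92 to 8.46.

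The order of the steps by member calls changed with the setting, and the counts here are those of the values as deposited with the limit of 5. Without a filter there were 4 from P10 to P15 and 7 from P25 to P40, the latter 3 higher and 4 lower. Those counts are of 25 probe sets, among them the ones that did not exceed the limit on 3 arrays. With the 3′ minus 5′ covariate there were 2 from P10 to P15, as many as from P7 to P10. From P7 to P10, 2 of the 19 probe sets were called, Vamp1 1421863_at and Cplx1 1417746_at, both higher (2.77% of all probe sets called, 1.85% higher). From P10 to P15, 7 were called, 4 higher and 3 lower (9.99% of all, 7.52% higher and 2.46% lower). From P15 to P25 there were 2, Vamp1 higher and Vamp2 1420833_at lower (4.24% of all, 1.94% higher and 2.3% lower), and from P25 to P40 another 2, Cplx1 1417747_at and Nsf 1422455_s_at, both higher (1.74% of all, 1.27% higher). The moderated F test over the 5 ages called 17 of 19, against 44.6% of all probe sets. Without P15 replicates 2 and 3 together, limma called 0 of 19 from P10 to P15, with 6 at an unadjusted p under 0.05 in place of 10, and the step of Vamp1 from P15 to P25 was not called (1.35).

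Replacement of 1 relative by another was read from the difference between both transcripts on the same array. Levels of different probe sets are not comparable, so only the change of that difference with age was used. Of 6 pairs planned, 3 had both relatives measured: Vamp1 with Vamp2, Cplx1 with Cplx2, and Napb with Napa, which encodes alpha-SNAP. Each gene was represented by its probe set with the highest mean. The 6 arrays of P25 and P40 were set against the 6 of P7 and P10 with an exact two-sided permutation test over 924 splits, whose smallest possible p is 0.00216. That p was reached by all 3 pairs, and it was 0.00216 after Benjamini-Hochberg adjustment over them. The share of other gene pairs that would reach it was not computed. Among all tested probe sets, 53.1% had P7 and P40 arrays that did not overlap. The pairs were chosen with earlier results of these data known. For P40 against P7 alone, 3 arrays each, the smallest exact permutation p is 0.1, which all 3 pairs gave. Only the pooled groups could therefore reach a smaller p. Pooling took P7 and P10 as 1 group, although their means differed for 2 pairs. These means were -2.23 and -0.38 for Vamp1 minus Vamp2, and 3.1 and 4.31 for Cplx1 minus Cplx2. For Napb minus Napa they were 2.27 and 2.17. The 6 arrays of a group are thus not 6 replicates of 1 age.

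The Vamp1 minus Vamp2 difference was -2.06, -2.32 and -2.30 at P7, -0.61, -0.52 and -0.02 at P10, 0.49, 0.40 and 0.19 at P15, 2.20, 1.49 and 2.03 at P25, and 2.44, 2.19 and 2.13 at P40. The ages up to P25 did not overlap, and P25 and P40 did. The ratio of Vamp1 to Vamp2 was 10.5-fold higher at the late ages (log2 change 3.39, exact permutation p = 0.00216, n = 6 and 6). With the other Vamp2 probe set, which was under 5 on 3 of the 6 early arrays, the change was 2.75 (exact permutation p = 0.00433). Vamp1 rose and neither Vamp2 probe set was lower at P40 than at P7, so the change of the ratio lay in Vamp1.

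For Cplx1 minus Cplx2 the difference was 2.89, 3.33 and 3.09 at P7, 4.34, 4.20 and 4.40 at P10, 7, 7.56 and 7.61 at P15, 7.46, 7.28 and 7.39 at P25, and 10.59, 8.39 and 7.63 at P40. The P15 and P25 arrays overlapped, and each younger age lay apart from the next. On P40 replicate 1, which gave 10.59, Cplx2 1455672_s_at read 4.13, at background. The ratio of Cplx1 to Cplx2 was 21.3-fold higher at the late ages (log2 change 4.41, exact permutation p = 0.00216, n = 6 and 6). With the other bright Cplx1 probe set, 1448832_a_at, in place of 1417746_at the change was 3.88 (exact permutation p = 0.00216). The other combinations use a dimmer probe set with several arrays at or under 5 and are not read here. Most of the change of this ratio lay in Cplx2, which fell by 4.96 from P7 to P40 while the same Cplx1 probe set rose by 0.81.

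The Napb minus Napa difference moved the other way and less. It read 1.91, 2.50 and 2.39 at P7, 2.13, 2.51 and 1.86 at P10, 1.49, 2 and 1.71 at P15, 1.34, 1.13 and 1.19 at P25, and 1.72, 1.24 and 1.59 at P40. The 6 early arrays, from 1.86 to 2.51, all lay above the 6 late ones, from 1.13 to 1.72. The ratio of Napb to Napa was 1.80-fold lower at the late ages (log2 change -0.85, exact permutation p = 0.00216), with both transcripts higher at P40 and Napa the more so, at 1.46 (SE 0.20, adjusted p = 7.4e-05). This result depended on the probe set: with Napb 1427470_s_at, at background on 2 of 3 P7 arrays, the change was 0.77 and 1.43 against the Napa probe sets 1416192_at and 1448243_at (exact permutation p = 0.11 and 0.0152), while the 5 other combinations stayed negative.

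**Figure D5:**
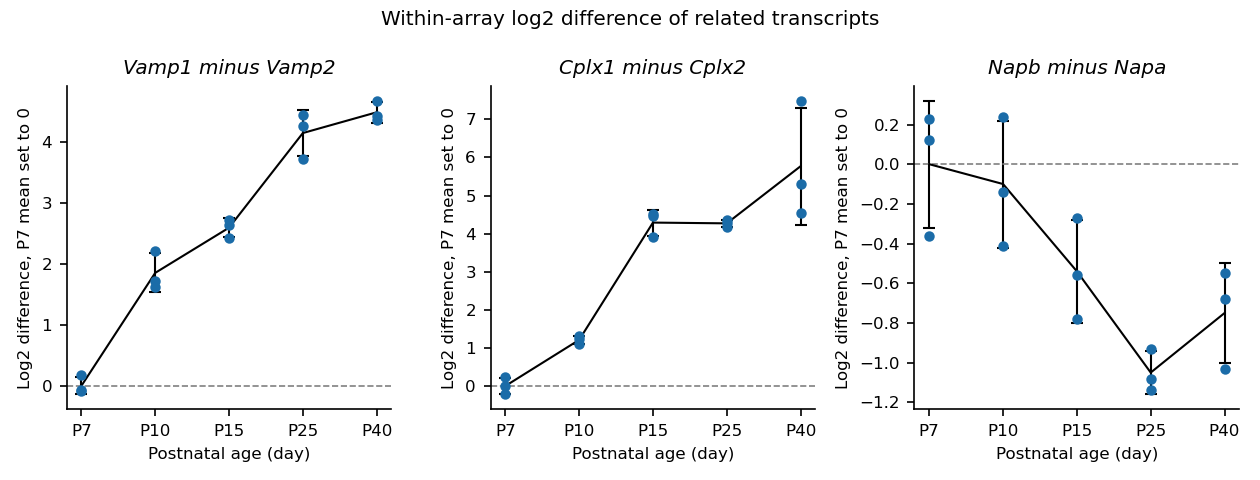
Within-array log2 difference between the transcripts of each pair (y axis, with the P7 mean set to 0) by postnatal age (x axis); points are arrays, the line joins the age means and bars are the SD over 3 arrays. Vamp1 relative to Vamp2 climbs in steps to P25, Cplx1 relative to Cplx2 climbs most between P10 and P15, and Napb relative to Napa declines; the y scales differ.

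Among other SNAREs, most of them of the Golgi, endosome and lysosome, 8 genes rose, 0 fell and 17 missed the threshold, of 25 tested, with a median difference of 0.39. Over all 9663 genes 44.3% were called, 27% higher and 17.3% lower, with a median of 0.18. By limma at an unadjusted p under 0.05 the number was 9. With quantile normalization or equal array medians the split was 6 higher and 2 lower. Sec22b, of the route between endoplasmic reticulum and Golgi, rose 4.24-fold (log2 difference 2.08, SE 0.41) and Bet1, of the same route, went from 4.33 ± 1.07 (SD, n = 3) to 6.36 ± 0.20. The plasma membrane syntaxin Stx4a rose 3.82-fold (SE 0.39) and the endosomal Stx12 2.58-fold (SE 0.25). The 4 adjusted p ran from 5.7e-04 to 0.0073. With the 3′ minus 5′ covariate 4 genes of this group were called and Bet1 was not (1.33 in place of 2.04), and without P40 replicate 1 the number was 5. The mean of its probe sets gave 1.24 for Sec22b.

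Among genes that bind, prime or disassemble SNAREs, 24 were tested, with 7 higher at P40, 6 lower, 11 not called and a median of 0.26. Over all genes 44.3% were called, 27% higher and 17.3% lower, and with quantile normalization or equal array medians 6 genes of this group rose and 9 fell. Doc2a, a calcium sensor with C2 domains, went from 12.34 ± 0.06 (SD, n = 3) at P7 to 7.70 ± 0.76 at P40, 24.9-fold lower (SE 0.38, adjusted p = 8.6e-07). The priming factor Unc13b, which encodes Munc13-2, fell 13.1-fold (SE 0.49), and its relative Unc13c was at least 4.71-fold lower. Cadps2, a priming factor of the CAPS family, was at least 6.18-fold lower (log2 difference -4.75, SE 1.24), with 5.98 ± 2.43 at P15. Its relative Cadps rose 2.03-fold (SE 0.14, adjusted p = 6.1e-05), and Unc13a, the third Munc13 gene tested, gave 0.06 (SE 0.30, adjusted p = 0.89). Cadps2 gave -6.72 with the 3′ minus 5′ covariate and -4.13 without P7 replicate 2, Unc13c gave -3.75 with the covariate in place of -4.49, and Unc13b -2.02 with the mean of its probe sets in place of -3.71. No other probe set of Unc13b passed the limit for testing.

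Napg, which encodes gamma-SNAP, rose 5.22-fold (log2 difference 2.38, SE 0.43, adjusted p = 5.4e-04), though the mean of its probe sets gave 0.87 and the 3′ minus 5′ covariate 1.66. Snph, syntaphilin, a syntaxin-binding protein that also anchors axonal mitochondria, rose 13.6-fold (3.77, SE 0.41, adjusted p = 8.3e-06). Vps33a, a partner of endosomal SNAREs, rose 3.00-fold (1.58, SE 0.39), a call lost with the covariate (0.95), and the mean of its probe sets gave 0.78. No other probe set of Vps33a passed the limit for testing.

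Among the 9663 genes, those whose log2 values followed the members most closely over the 15 arrays were named by Pearson correlation, as a description; the arrays compared share age. Closest to Vamp1 were Kcna2, an axonal potassium channel (r = 0.979), Septin4 (r = 0.977) and the transcription factor Tef (r = 0.976). Kcna2 went from 9.44 ± 0.39 (SD, n = 3) at P7 to 13.52 ± 0.09 at P25 and 13.45 ± 0.15 at P40, with the same levelling off after P25 as Vamp1. Closest to Cplx1 1417746_at were Rgs7bp (r = 0.970), Aldoc and Ptpn4 (both r = 0.962), which were also highest at P40. Those nearest to Cplx2 were Dda1 (r = 0.963), the transcription factor Npas3 (r = 0.959) and Arhgap33 (r = 0.956). Arhgap33 read 8.96 ± 0.16 at P10 and 7.23 ± 0.66 at P15.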

How the data were processed

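The arrays measured RNA of hand-picked neurons, 1 animal per array, 3 arrays at each of 5 ages. Values are log2 expression per probe set, deposited by the authors, and the submitters' processing notes name GCRMA for background correction, normalization and summary; its version is not given in the sources used here. They were used as deposited. Arrays have no sequencing depth, so their number limits the precision.

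Of 34945 probe sets annotated to 1 gene, 15381 exceeded 5 on at least 3 of 15 arrays and were fitted together in limma 3.58.1 (R 4.3.3): a means model over 5 ages, empirical Bayes with trend, 10 residual degrees of freedom, two-sided tests, Benjamini-Hochberg adjustment over all 15381 within a contrast, and calls at an adjusted p under 0.05. SE values are moderated. A fold needs both means over 5. Where all arrays of 1 age were at or under 5, "at least" compares the other age's mean with 5. For other genes the probe set of highest mean stood for the gene, which gave 9663 genes. The fit was tested on simulated data. Python 3.11.15 with pandas 2.3.3 made the tables and matplotlib 3.10.9 the plots.

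The text names every member probe set, the partners in the pairs, the 4 largest called rises and falls of each other list, and the 3 genes most correlated with Vamp1, Cplx1 and Cplx2 (the rule also held Cplx3, which had no signal), with Pvalb and other cell type markers as a check. The members, lists and pairs were chosen with earlier results of these data known. Of 31 other SNARE genes listed 30 had a probe set of their own, and of 27 SNARE-binding and disassembly genes 26. The marker lists of Lamp5 and neurogliaform interneurons, astrocytes, microglia and endothelial cells had 2 of 4, 3 of 5, 1 of 5 and 0 of 4 genes over 5 on at least 3 arrays; parvalbumin interneurons had 6 of 6, layer 6b and subplate neurons 2 of 4, and Sst and Vip interneurons 2 of 4. Settings tried were quantile normalization, equal array medians, no filter, a filter at 7, 1 probe set or the mean of probe sets per gene, the replicate number as a block, the 3′ minus 5′ covariate, no trend, and each array left out.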

Additional observations from a re-analysis of the deposited data

How the results depend on the processing

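The number of member probe sets called between P7 and P40, 17, was 15 to 18 with each array left out and at least 12 under the other settings that kept all probe sets; with 1 probe set or the mean of probe sets per gene it was 8 of 8, there and in the F test. Left-out arrays gave 15 to 17 in the F test, 5 to 9 for other SNAREs and 11 to 14 for SNARE-binding and disassembly genes. The step counts were less stable. From P7 to P10 (2 calls) it was 1 with equal medians, no filter, the mean of probe sets, no trend or without P15 replicates 2 and 3 together, and 1 to 2 with single arrays left out. From P10 to P15 (7 calls) it was 4 without a filter, 3 with 1 probe set per gene, 4 with their mean, 2 with the 3′ minus 5′ covariate, 0 without P15 replicates 2 and 3 (6 at an unadjusted p under 0.05), and 2 to 9 with single arrays left out. From P15 to P25 (2 calls) it was 1 without a filter, with 1 probe set per gene, their mean, the block or the covariate, 0 without P15 replicates 2 and 3 (4 unadjusted), and 1 to 3 with single arrays left out. From P25 to P40 (2 calls) it was 7 without a filter, 1 with a filter at 7, the block or without P15 replicates 2 and 3, 0 with 1 probe set per gene, their mean or the covariate in limma (3, 4 and 6 unadjusted), and 0 to 2 with single arrays left out. The count for other SNAREs, 8, was 4 with the covariate. The cause of these differences was not tested. The settings with 1 probe set or the mean of probe sets per gene tested 8 members. Without a filter 25 member probe sets were tested, in place of 19, and with arrays left out 19.

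The pair changes kept their sign with each array left out: 3.18 to 3.64 for Vamp1 minus Vamp2, 3.92 to 4.58 for Cplx1 minus Cplx2, and -0.92 to -0.79 for Napb minus Napa. P40 against P7 alone gave 4.48, 5.77 and -0.75. Combinations of probe sets, a choice added after the data were seen, turned Napb minus Napa to 0.77 and 1.43. Cplx1 1448832_a_at changed sign with equal medians (-0.15) and without P7 replicate 1 or P40 replicate 3 (-0.13 and -0.04), and left-out arrays gave -0.13 to 0.20. Replicate numbers are shared across ages but mark different animals, and same-numbered arrays of different ages did not deviate together (median correlation -0.056, from -0.422 to 0.28). With the replicate number as a block the pair changes were the same, 3.39, 4.41 and -0.85. The exact permutation p within numbers was 0.00926 for each pair, the smallest that this test can give. With the same block in limma, 17 member probe sets were called between P7 and P40.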
